A study of Mus musculus with 4 samples.

Results

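Interferon-stimulated genes (ISGs) are the genes that a cell induces through its interferon receptors. A chromatin immunoprecipitation sequencing (ChIP-seq) study of histone H3 methylated at lysine 4 (H3K4), a mark of active and poised promoters, was read here at 34 of them. They were given by name, as a list of antiviral ISGs drawn up with earlier results of these data known, among 22367 protein-coding genes of the GENCODE vM1 annotation of the mouse mm9 genome. The H3K4 libraries came from activated mouse B cells lacking PA1, labelled PA1-KO, and from B cells labelled PA1-WT, with 1 library per genotype. PA1 binds PTIP, and both belong to the complex around the H3K4 methyltransferases MLL3 and MLL4. The study addressed how histone marks in activated B cells depend on PA1. Both libraries share their source: spleens of mice 6 to 14 weeks of age, from which CD43-bearing cells were removed to leave B cells, which were then kept for 2 days with LPS at 25 µg/ml plus either anti-IgD-dextran at 2.5 ng/ml or IL-4 at 5 ng/ml. Which of these stimuli, which strain, how PA1 was deleted, how many mice contributed and which methylation state of H3K4 was precipitated are not in the labels of these libraries. The other 2 samples of the series were not analysed here.

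In this pathway, type I interferons bind a paired receptor at the cell surface. The signal ends in the nucleus at the interferon-stimulated response element (ISRE), a sequence in the promoters of many ISGs. The products block viral entry, degrade or edit viral RNA, stop translation and sense foreign nucleic acid. Many cell types keep a low level of some ISGs without infection, and LPS can induce interferon in several immune cell types.

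A core of the ISRE, GAAA followed by any 2 bases and again GAAA, was searched on both strands within 300 bases either side of the transcription start site (TSS) of each gene. It was found in 19 of the 34 members (55.9%), against 6.5% of all protein-coding genes. Among genes with H3K4 signal, as defined below, 17 of 30 members held it (56.7%), against 5.33% of 12186 genes. A longer form with C as the next base, which contains the shorter one, was in 15 members (44.1%) and 1.52% of all genes. Of 31 matches of the shorter form in the members, 28 lay before the TSS and 26 within 200 bases before it. A match describes the letters of the window and is not a binding site. Sequences are shown for the most heavily marked members that hold the motif, for the member with the highest ratio between the libraries, chosen after its value was seen, and for a member with little signal. All are mm9 and run 5′ to 3′ on the gene's own strand. Capitals mark the shorter form or, where the match is on the other strand, its reverse complement.
Parp14: tccaggaaatGAAAGCGAAAgaagttatct
Parp9: agaggcaaagTTTCAGTTTCgattccccag
Ifih1: gaagagaatcGAAACAGAAAccgatctgtg
Ddx58: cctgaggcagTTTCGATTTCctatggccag
Bst2: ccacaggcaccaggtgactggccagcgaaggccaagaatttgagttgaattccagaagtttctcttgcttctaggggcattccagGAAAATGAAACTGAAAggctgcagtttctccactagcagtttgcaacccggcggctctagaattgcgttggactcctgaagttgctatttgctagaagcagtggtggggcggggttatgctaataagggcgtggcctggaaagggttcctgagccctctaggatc
Isg15: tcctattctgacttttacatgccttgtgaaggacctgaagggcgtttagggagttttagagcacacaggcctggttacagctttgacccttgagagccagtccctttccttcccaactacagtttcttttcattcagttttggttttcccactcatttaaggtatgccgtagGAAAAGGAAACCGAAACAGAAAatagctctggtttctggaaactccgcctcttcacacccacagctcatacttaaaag
Oas2: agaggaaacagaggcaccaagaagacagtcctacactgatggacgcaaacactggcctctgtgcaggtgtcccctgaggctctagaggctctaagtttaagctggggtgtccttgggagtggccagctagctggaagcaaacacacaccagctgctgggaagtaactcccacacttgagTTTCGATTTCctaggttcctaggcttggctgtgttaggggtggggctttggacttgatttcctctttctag

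The first 4 stretches are the match with 10 bases either side. Parp14 is shown at chr16:35871503-35871532 (minus strand), Parp9 at chr16:35939048-35939077 (plus), Ifih1 at chr2:62484261-62484290 (minus) and Ddx58 at chr4:40186837-40186866 (minus). The other 3 are the 250 bases before the TSS, at chr8:74061337-74061586 for Bst2, chr4:155574928-155575177 for Isg15 and chr5:121199863-121200112 for Oas2, all on the minus strand. The Isg15 stretch holds 3 overlapping matches, whose first bases lie at -78, -72 and -66 from the TSS. In Bst2 a pair of overlapping matches starts at -165 and -159. The match of Dtx3l is the one printed for Parp9, read from the other gene. Trim25, the member with the most reads, held no match. The 17 marked members with the motif had a median of 479 reads and a median ratio of 1.12, and the 13 without it 599 reads and 1.03.

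Signal was counted as reads whose 5′ end, moved 75 bp into the fragment, lay within 1 kb of the annotated TSS with the most reads. Nuclear reads numbered 5259995 in the knockout and 5539475 in the wild-type library. Ratios are knockout over wild type after trimmed-mean (TMM) scaling of the libraries, and RPM values are reads per 1000000 on the same scale. Bounds in parentheses are exact 95% intervals. A single library per genotype allows no replicate check, and the intervals cover counting error only, so they compare these libraries and not the genotypes. The promoter of the targeted gene, PA1 (2900092E17Rik, TSS at 134159998 on chromosome 7), held 114 reads in the knockout library and 261 in the wild-type library, giving 0.498 (0.396 to 0.624). The 8 B cell marker promoters all carried signal, with 761 to 1111 reads in both libraries combined and ratios from 0.925 at Cd22 to 1.20 at Pax5. Of the other marker lists, 1 of 8 genes listed for T and NK cells had 50 or more reads, Cd2 with 407 knockout and 382 wild-type reads. The 789 combined reads of Cd2 lay within the range of the B cell markers. Cd3e, which defines T cells, had 1 knockout and 0 wild-type reads. Among myeloid markers 1 of 8 did, Itgam with 35 knockout and 27 wild-type reads, and Csf1r had 0 in both. In the erythroid and stromal list 5 of 8 did, the highest being Pecam1 with 389 knockout and 352 wild-type reads. With TMM scaling Itgam at 1.48 (0.870 to 2.54) and Epcam at 1.29 (0.903 to 1.84) were not called, where a call needed 1.5-fold and an interval excluding 1. With the trends on level and GC content removed (below), Itgam at 1.78 (1.05 to 3.06) and Epcam at 1.63 (1.15 to 2.33) were called higher. So were 1.17% of all promoters with 50 or more reads, and no other gene of the lists used here was called in that setting. Whether each listed marker is confined to the cell type of its list was not tested, nor was the part of other cells in the member signal.

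Most members carried a promoter H3K4 peak in both libraries. Taking 50 reads in both libraries combined as the minimum, 30 of 34 members were marked (88.2%), against 12186 of 22367 protein-coding genes (54.5%). The marked members had a median of 545 reads, against 462 for all marked promoters, and 19 of 30 lay above that median. Of the 30, 11 lay above the upper quartile of marked promoters, 621 reads, and 6 below the lower quartile, 280 reads. The median marked member had 49.8 RPM in the knockout library and 47.5 RPM in the wild-type library.

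**Figure D1:**
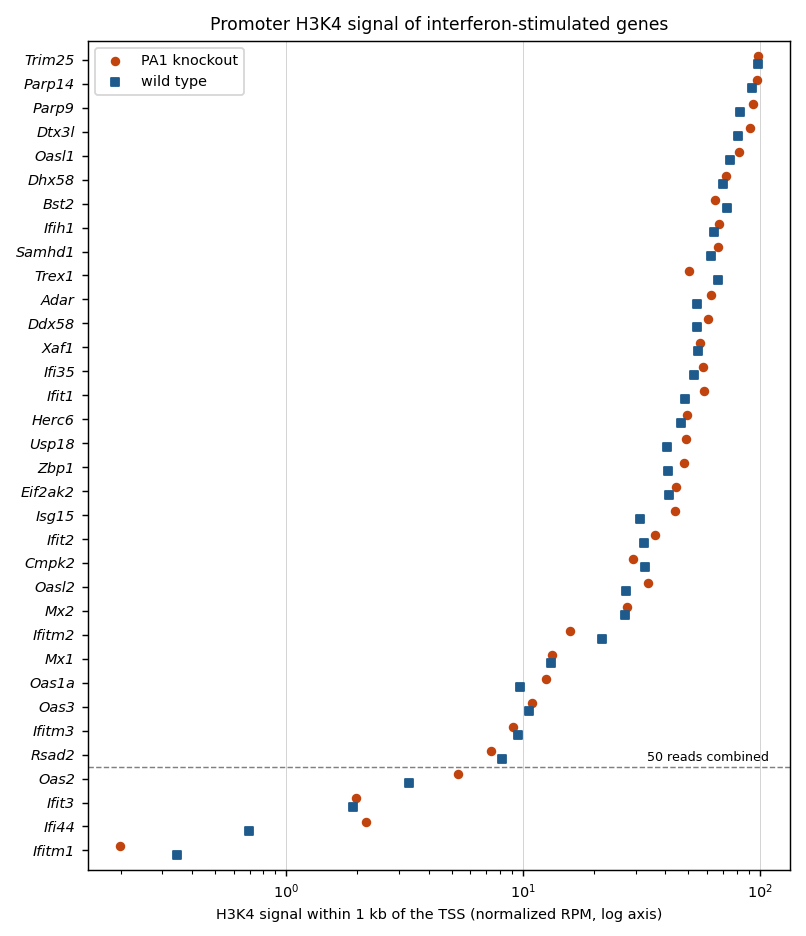
H3K4 signal within 1 kb of the TSS in normalized RPM (log axis) for the 34 members, ordered by reads, with PA1-knockout values as circles and wild-type values as squares, 1 library each. The members span from 98.8 RPM at Trim25 in both libraries to 0.198 RPM (knockout) and 0.347 RPM (wild type) at Ifitm1, and the dashed line separates the 4 members with under 50 reads.

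No marked member was called in either direction, where a call needed a ratio of at least 1.5-fold and an interval that excluded 1. Among all 12186 marked promoters 0.665% were called higher and 4.90% lower in the knockout library. Most of the 30 had ratios slightly above 1 with TMM scaling, 23 above and 7 below, against 50.2% of all marked promoters above 1. The median ratio was 1.07, or 0.10 on the log2 scale, with quartiles of 0.01 and 0.18, where all marked promoters had a median of 0.00 and quartiles of -0.18 and 0.14. The interval lay above 1 in 3 members, Isg15, Usp18 and Ifit1 (10.1% of all marked promoters), below 1 in 2, Ifitm2 and Trex1 (11.4%), and held 1 in 25. For 22 of 30 members the whole interval lay within 1.5-fold of 1, as it did for 71.8% of all marked promoters. These directions depended on the scaling: 13 of 30 members were above 1 when scaled to total reads (29.4% of all marked promoters) and 2, Isg15 and Oas1a, when scaled to reads outside islands and promoters, called background scaling here (6.25%). No member was called with total-read scaling, against 0.328% of promoters called higher and 7.78% lower. With background scaling Trex1 and Ifitm2 were called lower, against 0.140% of promoters higher and 16.7% lower. Those scalings moved the median of all marked promoters by -0.12 and -0.31 (log2). Since a scaling shifts every promoter alike, the median member lay 0.09 above the median of all promoters under each of them by construction. Directions below are with TMM scaling unless another is named.

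**Figure D2:**
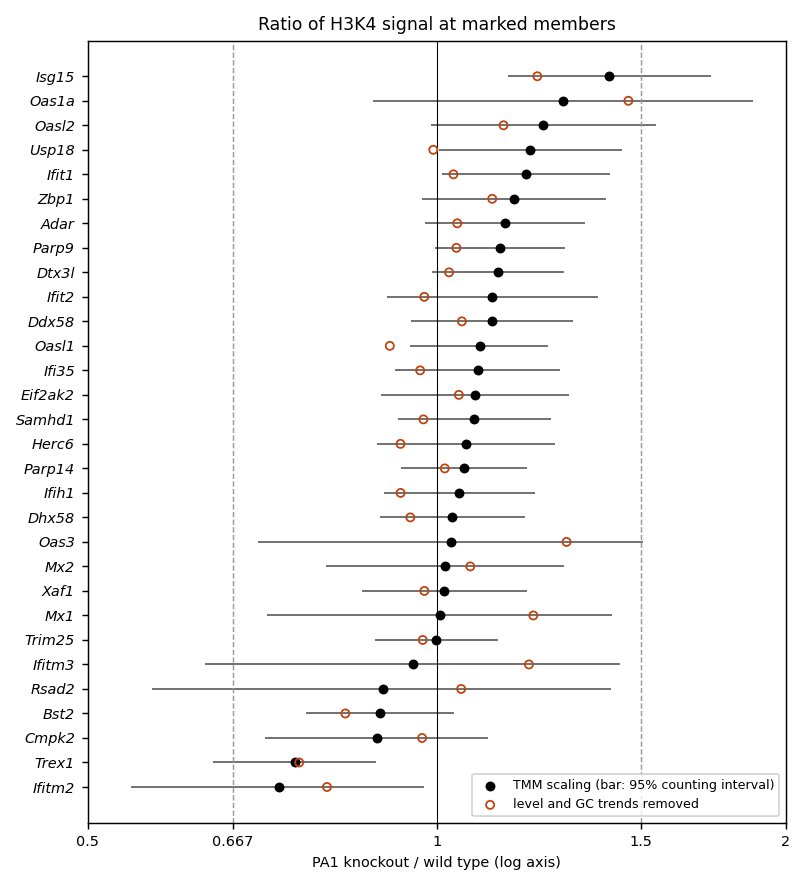
Ratio of knockout to wild-type H3K4 signal (log axis) for the 30 marked members, ordered by ratio, with TMM scaling (filled, bar for the 95% counting interval) and after removing the trends on level and GC content (open). Every filled point lies between the dashed 1.5-fold lines, from 1.41 at Isg15 to 0.730 at Ifitm2; scaled to background reads, only Isg15 and Oas1a were above 1.

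The members differ from other promoters in level and base composition, and the ratio between these libraries moved with both. Across all marked promoters the median log2 ratio was -0.43 at 50 to 100 reads, -0.30 at 100 to 200, -0.08 at 200 to 400, 0.05 at 400 to 800 and 0.10 above 800. In the same bins the members' medians were -0.15 (1 member), 0.03 (4), 0.02 (5), 0.11 (15) and 0.12 (5). By GC content of the window, all marked promoters had medians of 0.27 below 45%, 0.14 at 45 to 50%, 0.04 at 50 to 55%, -0.10 at 55 to 65% and -0.29 above 65%. The members had 0.27 (1 member), 0.14 (10), 0.06 (16) and -0.17 (3), with none above 65%. In each GC bin that held members, their median lay close to that of all promoters in the bin.

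Member windows were poor in GC and in CpG for marked promoters. Their median GC content was 51.8% (44.2 to 57.1%), against 54.1%, and 26 of 30 were below the median of all marked promoters. They held a median of 38.5 CpG dinucleotides (9 to 85), against 90, and all 30 were below the median of marked promoters. Of the 13216 protein-coding genes with 9 to 85 CpG in the window, 42.0% were marked. The marked promoters among them had a median of 448 reads and a median log2 ratio of 0.06. Within the members' GC range, 7832 marked promoters had a median log2 ratio of 0.06, with 0.396% called higher and 2.09% lower.

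With the trends on reads and GC content removed, the members' median log2 ratio was 0.029, with 16 above 1 and 14 below, where 50.1% of all marked promoters were above 1. No member was called, against 1.17% of promoters called higher and 1.04% lower. The interval then lay above 1 at Oas1a and below 1 at Bst2 and Trex1, and above and below 1 each in 4.87% of all marked promoters. Removing the GC trend alone gave medians of 0.049 for the members and 0.046 for all marked promoters.

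**Figure D3:**
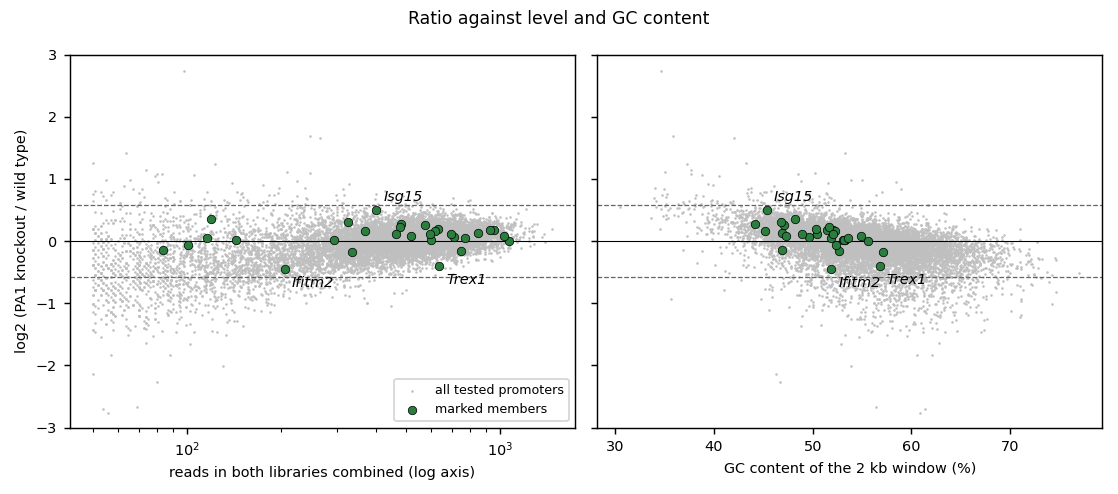
Log2 ratio of knockout to wild type for all 12186 marked promoters (grey) and the 30 marked members (green) against reads in both libraries (left, log axis) and GC content of the 2 kb window (right). The members sit within the grey cloud in both panels and inside the dashed 1.5-fold lines, and none lies above 57.1% GC, where 30.2% of marked promoters do.

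The ISG15 system comprises ISG15, a ubiquitin-like protein joined to targets upon interferon, and the enzymes around it. Isg15 had 222 knockout and 180 wild-type reads (43.9 RPM in the knockout and 31.2 RPM in the wild-type library), the highest ratio of any marked member at 1.41 (1.15 to 1.72). Its knockout value was higher than its wild-type value by more than counting error, although under the 1.5-fold threshold. The excess lay on both sides of the TSS, with 69 knockout and 50 wild-type reads in the 500 bases before it, 84 knockout and 68 wild-type reads in the 500 after and 63 knockout and 55 wild-type reads in the next 500. Within 500 bp of the TSS, Isg15 had 153 knockout and 118 wild-type reads. With TMM scaling refitted to that window this gave 1.58, a call as higher that 1.21% of all promoters shared, and with the scaling of the 1 kb window kept it gave 1.48 and no call (0.636% of promoters). Isg15 stood at 1.22 (0.999 to 1.49) with both trends removed and at 1.14 with background scaling. Usp18, the protease that removes ISG15 and restrains receptor signalling, had 248 knockout and 235 wild-type reads, giving 1.20 (1.0035 to 1.45), which was 0.993 with both trends removed. Herc6, the main ISG15 ligase of the mouse, had 249 knockout and 268 wild-type reads, giving 1.06, and 0.931 with both trends removed. Trim25, a ubiquitin ligase acting on the RNA sensor RIG-I, had the most reads of all members, 499 knockout and 570 wild-type reads, which is 98.8 RPM in each library and gives 0.999 (0.884 to 1.13). Summed over these 4 genes, the ratio was 1.11 (1.02 to 1.20). Intervals of summed reads, here and below, cover counting error and not the spread between genes. The sums are not adjusted for the trends on level and GC content. With both trends removed Isg15 was above 1 and the other 3 were below.

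Parp14, Parp9 and Dtx3l lie side by side on chromosome 16 and encode ADP-ribosyltransferases of the PARP family and the ubiquitin ligase that pairs with PARP9. Parp14 had 493 knockout and 533 wild-type reads, giving 1.06. Parp9 had 475 knockout and 478 wild-type reads, giving 1.13 (0.997 to 1.29). Dtx3l had 461 knockout and 466 wild-type reads, also 1.13. The Parp9 and Dtx3l start sites lie 121 bp apart on opposite strands, and their windows share 448 knockout and 457 wild-type reads, so these are nearly the same measurement. With both trends removed Parp14, Parp9 and Dtx3l were at 1.02, 1.04 and 1.02, each with an interval that held 1. With background scaling they were at 0.852, 0.916 and 0.912. Over the whole cluster with 10 kb either side, 1581 knockout and 1564 wild-type reads gave a ratio of 1.15 (1.08 to 1.24) with TMM scaling. That span also took in part of an island at a TSS outside these genes (chr16:35982401-35983600), whose ratio was 1.33 (1.07 to 1.65).

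The OAS family makes 2-5A, which activates the RNA-degrading RNase L, and its relatives Oasl1 and Oasl2 carry ubiquitin-like domains. All 4 marked members of the family had ratios above 1, with a ratio of sums of 1.13 (1.02 to 1.26), in which Oasl1 weighs most. With both trends removed 3 were above 1 and 1, Oasl1, below. Oasl1, which in the mouse restrains translation of the transcription factor IRF7, had the most signal, 414 knockout and 434 wild-type reads, giving 1.09, and 0.911 with both trends removed. Oasl2 had 170 knockout and 157 wild-type reads, giving 1.24 (0.989 to 1.55). Oas1a had 63 knockout and 56 wild-type reads, giving 1.28 (0.881 to 1.87). Its ratio was 1.46 (1.01 to 2.14) with both trends removed and 1.63 with only the level trend removed, where it was called higher, as were 1.90% of all promoters. Only 63.0% of the 25-base words in the Oas1a window occur 1 time in the genome, and the Oas1 genes form a cluster of close copies, so its counts are uncertain. Oas3 had 55 knockout and 61 wild-type reads (1.03), and Oas2 27 knockout and 19 wild-type reads, just under the minimum for a marked promoter. With background scaling, Oasl1, Oasl2 and Oas3 were below 1.

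The RNA and DNA sensors had ratios close to 1, all 4 slightly above it with TMM scaling and all below it with background scaling. With both trends removed 2 were above 1 and 2 below. Dhx58, the regulatory helicase LGP2, had 365 knockout and 404 wild-type reads (1.03). Ifih1, which encodes the long-RNA sensor MDA5, had 340 knockout and 371 wild-type reads (1.05). Ddx58, which encodes RIG-I, had 306 knockout and 313 wild-type reads (1.12). Zbp1, a sensor of Z-form nucleic acid, had 242 knockout and 237 wild-type reads (1.17). Their summed reads gave 1.08 (0.998 to 1.17). With both trends removed Dhx58 and Ifih1 were at 0.949 and 0.931, and Ddx58 and Zbp1 at 1.05 and 1.12.

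The membrane restriction factors hinder viruses at the cell surface or in endosomes, and their 3 marked members were all below 1, with a ratio of sums of 0.865 (0.764 to 0.979). Bst2, or tetherin, which holds budding virions at the cell surface, had 328 knockout and 419 wild-type reads, giving 0.893 (0.771 to 1.03). With both trends removed Bst2 was at 0.834 (0.720 to 0.966). Ifitm2 had 80 knockout and 125 wild-type reads (15.8 RPM in the knockout and 21.7 RPM in the wild-type library), the lowest ratio of any marked member at 0.730 (0.545 to 0.975). Its knockout value was lower by more than counting error, and in the first 500 bases after the TSS 34 knockout and 63 wild-type reads gave 0.616. Ifitm2 stood at 0.804 with both trends removed, and at 0.590, a call as lower, with background scaling. Ifitm3, which blocks fusion of virions in endosomes, had 46 knockout and 55 wild-type reads (0.955), and its ratio was above 1 with both trends removed. Ifitm1 had 1 knockout and 2 wild-type reads. The 3 Ifitm genes lie together on chromosome 7, where 297 knockout and 390 wild-type reads over the cluster gave 0.869 (0.745 to 1.01). The deficit was not spread evenly over the cluster. The island of enrichment at Ifitm2 held 119 knockout and 206 wild-type reads (0.659). The island at Ifitm3 held 38 knockout and 45 wild-type reads (0.964). A further island at chr7:148184801-148185600 held 54 knockout and 46 wild-type reads (1.34). Of the 25-base words in the Ifitm2 window, 80.7% occur 1 time in the genome.

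Enzymes acting on nucleic acids or nucleotides split evenly, 3 above and 3 below 1, with a ratio of sums of 0.982. Trex1, the exonuclease that clears cytosolic DNA, had 254 knockout and 384 wild-type reads (50.3 RPM in the knockout and 66.6 RPM in the wild-type library), a ratio of 0.755 (0.642 to 0.887). Its knockout value was lower by more than counting error, and the interval stayed below 1 with both trends removed, at 0.761 (0.647 to 0.894). After the TSS, the first 500 bases held 117 knockout and 172 wild-type reads, and the next 500 held 77 knockout and 134 wild-type reads. The 500 before the TSS held 44 knockout and 45 wild-type reads. Further upstream, 500 to 1000 bases before the TSS, 16 knockout and 33 wild-type reads gave 0.553 (0.284 to 1.03). The interval lay below 1 in both stretches after the TSS, at 0.776 (0.608 to 0.988) and 0.656 (0.489 to 0.874). It held 1 in both stretches before the TSS, the nearer one at 1.12 (0.719 to 1.73). A deficit beyond counting error was thus seen only after the TSS. Trex1 gave 0.926 at its most upstream annotated TSS. Within 500 bp of the same TSS as in the 1 kb window, 162 knockout and 218 wild-type reads gave 0.903 with the scaling refitted to that window and 0.848 with the scaling kept. With background scaling it was 0.610, a call as lower. Samhd1, which depletes nucleotides, had 338 knockout and 358 wild-type reads (1.08). Adar, the RNA-editing adenosine deaminase, had 316 knockout and 315 wild-type reads (1.14), and 0.932 at its most upstream TSS. Eif2ak2, the kinase PKR that stops translation, had 225 knockout and 238 wild-type reads (1.08). Cmpk2, a mitochondrial nucleotide kinase, had 147 knockout and 189 wild-type reads, giving 0.888 (0.711 to 1.11). Its neighbour Rsad2, the radical-SAM enzyme viperin, had 37 knockout and 47 wild-type reads, giving 0.898 (0.568 to 1.41), and was the member just inside the minimum, with 84 reads, where Oas2, just outside it, had 46.

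The IFIT proteins bind viral RNA ends. Ifit1 had 293 knockout and 280 wild-type reads, giving 1.19 (1.01 to 1.41), which was 1.03 with both trends removed and 0.964 with background scaling. Ifit2 had 183 knockout and 187 wild-type reads (1.12). Ifit3 had 10 knockout and 11 wild-type reads, but only 30.3% of the 25-base words of its window occur 1 time in the genome, so its low count is uncertain. The cluster of these 3 genes held 685 knockout and 692 wild-type reads, giving 1.13 (1.01 to 1.26).

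The MX proteins, dynamin-like GTPases that trap viral particles, did not differ between the libraries beyond counting error. Mx2 had 139 knockout and 156 wild-type reads, and Mx1 67 knockout and 76 wild-type reads, with ratios of 1.02 and 1.01. Of the 25-base words, 75.1% at Mx2 and 76.9% at Mx1 occur 1 time. Xaf1, an antagonist of the apoptosis inhibitor XIAP, had 282 knockout and 317 wild-type reads (1.02, and 0.976 with both trends removed). Ifi35, an interferon-induced partner of NMI, had 290 knockout and 305 wild-type reads (1.09, and 0.968 with both trends removed). Ifi44 had 11 knockout and 4 wild-type reads.

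The share of reads on each side of the TSS was close to the same in both libraries. Summed over the marked members, 65.4% of reads off the TSS base lay downstream in the knockout library (4985 of 7625, 64.3 to 66.4%) and 65.4% in the wild-type library (5374 of 8211, 64.4 to 66.5%). Reads shared by the Parp9 and Dtx3l windows were counted for both genes in these sums, so the intervals are somewhat too narrow. For all marked promoters the shares were 61.9% in the knockout and 62.4% in the wild-type library. No member had shares whose intervals failed to overlap between the libraries. The same count over all marked promoters is not given here, so this is not read as a trait of the members. In 3 members, Oasl2, Dhx58 and Mx2, under 50% lay downstream in both libraries. Oasl2 had the lowest share in each, 24.7% downstream in the knockout and 27.4% in the wild-type library, and Cmpk2 lay at the other end with 87.8% in the knockout and 90.5% in the wild-type library. The highest 100 bp bin was the first after the TSS in both libraries. Of the members' reads, 4.75% in the knockout and 5.34% in the wild-type library lay in the 100 bases before the TSS, against 2.12% (knockout) and 2.49% (wild type) for all marked promoters, where the profile dips.

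**Figure D4:**
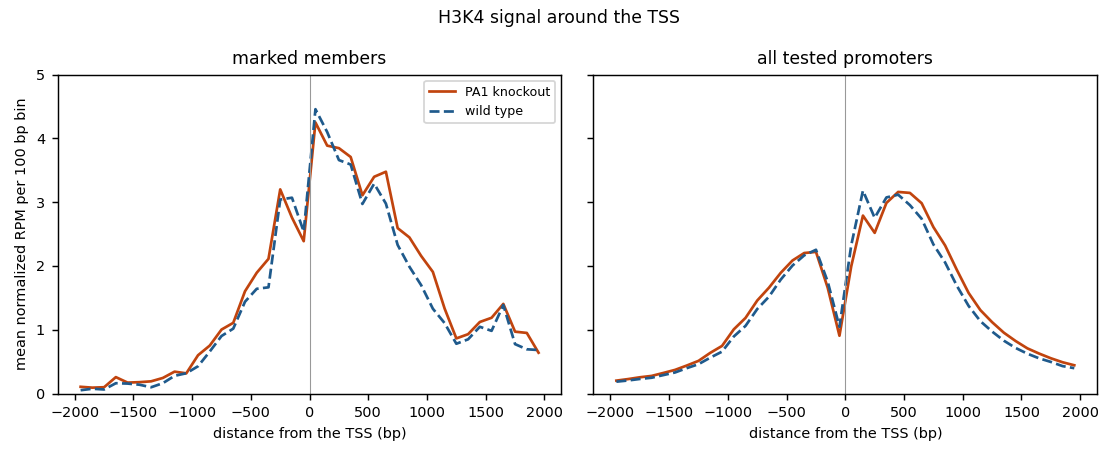
Mean H3K4 signal (normalized RPM per 100 bp bin) against distance from the TSS for the 30 marked members (left) and all 12186 marked promoters (right), with knockout as the solid and wild type as the dashed line, TMM-scaled. Both libraries peak just after the TSS at the members, and the knockout line runs above the wild-type line from 500 to 1000 bp downstream in both panels.

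Within the window the knockout signal was spread slightly wider. Reads over 500 bp from the TSS made up 38.0% of the members' reads in the knockout library and 35.2% in the wild-type library, against 47.2% (knockout) and 43.6% (wild type) over all marked promoters. The outer share was larger in the knockout library in 25 of 30 members. How many of all marked promoters share this is not given here, so the count is not read as a trait of the members. Summed reads, those shared by Parp9 and Dtx3l counted for both genes, gave a ratio of 1.15 (1.09 to 1.21) over 500 bp from the TSS. Within 500 bp they gave 1.01 (0.974 to 1.05), while all marked promoters gave 1.10 over 500 bp from it and 0.951 within. The larger outer ratio was thus also present over all marked promoters, and whether it differs at ISGs was not tested.

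Islands of enrichment, called on both libraries together, took in the full width of each peak. The windows of marked members touched 29 islands, with a median length of 2400 bp, against 1800 bp for all islands within 1 kb of a TSS. None was called higher (1.22% of all such islands) and 1 was called lower (5.10%). The island called lower, at Ifitm2 (chr7:148139601-148142200), had 119 knockout and 206 wild-type reads, giving 0.659 (0.522 to 0.830). In 9 of the 29 the interval lay above 1 (15.2% of all such islands) and in 2 below (11.4%). Island ratios were TMM-scaled only, with no trend on level or GC content removed, so these counts are not read as a trait of the members. The island at Samhd1 spanned 7000 bp with 933 knockout and 833 wild-type reads, giving 1.28 (1.16 to 1.41), where the promoter window gave 1.08. It also took in another annotated Samhd1 start site (chr2:156955793), whose own window held 564 reads in both libraries combined. The island at Isg15 had 312 knockout and 276 wild-type reads, 1.29 (1.09 to 1.52). At Trex1 the island spanned 11600 bp with 1954 knockout and 2320 wild-type reads, and its ratio of 0.961 was closer to 1 than that of the promoter window. Away from promoters, 10 islands lay within 10 kb of a member gene and over 1 kb from any TSS. Of these 1 was called higher (5.67% of all 11979 such islands) and none lower (5.71%). It lay beyond Trim25 (chr11:88885601-88887200), with 102 knockout and 74 wild-type reads, giving 1.57 (1.15 to 2.15).

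No call was made in the rest of the interferon pathway either. Of 56 marked genes in 5 further lists, none was called higher or lower, where 0.665% of all marked promoters were called higher and 4.90% lower. Among ligands and receptors, 5 of 7 were marked, and their ratios ran from 1.01 at Ifngr1 to 1.09 at Ifngr2, which encode the receptor of interferon gamma. The only ligand genes in the list were unmarked, Ifnb1 with 2 knockout reads and 1 wild-type read, Ifng with 0 knockout reads and 1 wild-type read. Other interferon genes were not in the list. Of the signalling genes and transcription factors 11 of 12 were marked, with a median log2 ratio of 0.06. Irf7, the factor that amplifies interferon production, was highest at 1.27 (194 knockout and 175 wild-type reads) and Irf1 lowest at 0.957 (312 knockout and 372 wild-type reads). The Tyk2 window held 4 knockout and 2 wild-type reads.

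All 7 adaptors and kinases of nucleic acid sensing that were found were marked, with a median of 0.07, from the kinase gene Tbk1 at 1.22 (359 knockout and 336 wild-type reads) to the related Ikbke at 0.937 (293 knockout and 357 wild-type reads). Of the other interferon-induced genes, 23 of 24 found were marked, with a median of 0.06. They ran from Isg20, an exonuclease, at 1.33 (280 knockout and 241 wild-type reads) to Ifi30, a lysosomal thiol reductase, at 0.840 (284 knockout and 386 wild-type reads). The guanylate-binding proteins and immunity-related GTPases attack vacuoles holding parasites or bacteria. Their genes had the highest median of the lists, 0.29 over 10 marked genes of 13. The interval lay above 1 in 6 of these 10, against 10.1% of all marked promoters. Gbp4 was highest in that list at 1.32 (197 knockout and 170 wild-type reads) and Irgm2 lowest at 0.9995 (134 knockout and 153 wild-type reads). With both trends removed the intervals of those 6 genes all held 1. This list's median was then 0.06, and those of the other 4 lists lay between -0.04 and 0.03.

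**Figure D5:**
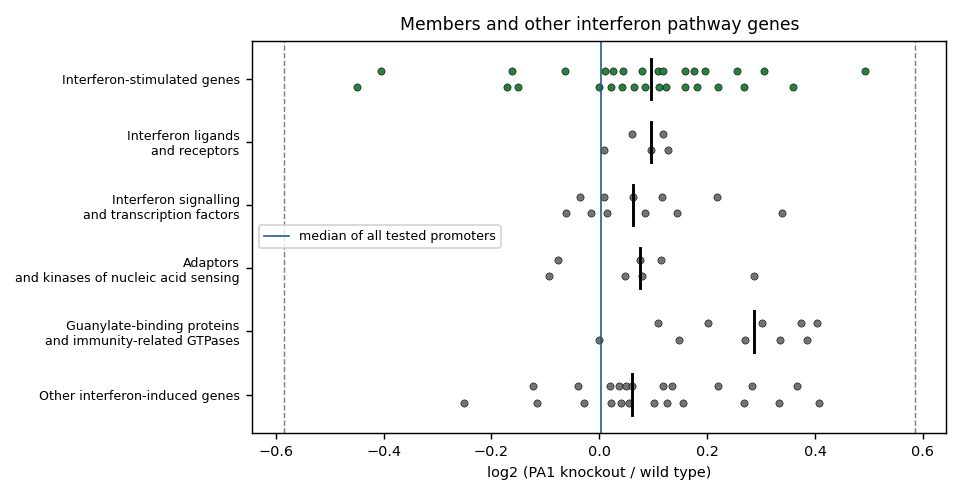
Log2 ratio of knockout to wild type with TMM scaling for the 30 marked members (top row) and for the marked genes of 5 further interferon lists, with the list median as a black bar and the median of all marked promoters as the vertical line. All points lie inside the dashed 1.5-fold lines, and the guanylate-binding proteins and immunity-related GTPases have the highest median at 0.29; background scaling would move every point by -0.31.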

How the data were processed

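The authors deposited read positions for each library as 1 line per mapped read of 25 bases, with strand and match descriptor and no normalized value. Per the submitters' processing notes, mm9 and SICER were used, with no version or role. The aligner's name is not given in these sources. Per the labels' protocols, native chromatin was cut with MNase to mononucleosomes and libraries were amplified for 18 PCR cycles. Within a file each position and strand occurred at most 1 time, so repeats had been dropped, which compresses strong peaks slightly. At most 14.2% of places in a member window were filled. Positions were taken as 1-based, since the letter that a 1-mismatch read carries in its descriptor was then the NCBIM37 base in 100% of such reads. In total 5260401 knockout and 5539549 wild-type reads were read.

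The counts, TMM factors (trims of 30% and 5%), intervals (Clopper-Pearson on the conditional binomial, 95%), trends (splines on log2 reads and GC content over all marked promoters) and islands (200 bp windows with a Poisson probability under 1e-05, gaps up to 200 bp, at least 20 reads) were computed with Python 3.11.15, numpy 2.4.6, pandas 2.3.3 and scipy 1.17.1. Log2 ratios carry 0.5 added reads per library. The TSS was chosen, and TMM fitted, again for each setting that changed counts, unless stated. The counting was tested on simulated data. Reads carry no molecular identifiers and PCR copies are not independent, so intervals cover counting error only. Members, pathway lists and marker lists were chosen with earlier results of these data known. Given in full were the 4 highest and 4 lowest ratios, the 3 members with the most reads, those next to the 50-read minimum, and the highest and lowest gene of each pathway list; other named values illustrate roles, shape or position and were chosen after they were seen. Of the pathway and marker lists, Mb21d1, Ifi27 and Adgre1 did not match an annotated name; Emr1 stood for the last. Alternatives were other scalings, windows, read minima, start sites, no shift and removal of trends.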

Additional observations from a re-analysis of the deposited data

How the results depend on the processing

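The 30 marked members, 0 calls in each direction and the small positive median rest on 1 library per genotype, of 5260401 knockout and 5539549 wild-type reads, and TMM scaling, and weak members such as Rsad2 could not be resolved to 1.5-fold at this depth. Members called higher numbered 1 when reads were counted within 500 bp with the scaling refitted to that window (Isg15), 0 there with the scaling of the 1 kb window kept, an alternative chosen after seeing the data, and 1 with the level trend removed (Oas1a); members called lower numbered 2 with scaling to reads outside islands and promoters (Trex1 and Ifitm2). From the 5 pathway lists 1 gene, Sp110, was called higher with the level trend removed. The members' median log2 ratio was -0.020 with total-read scaling, -0.21 with background scaling, 0.011 within 500 bp with the scaling kept, 0.049 after removal of the GC trend and 0.029 after removal of both. The other 9 alternatives kept it between 0.07 and 0.14. With both trends removed it was 0.075 in a 2 kb window and -0.029 in a 500 bp window. The downstream share in the knockout and wild-type libraries was 71.7% and 72.4% within 2 kb, 60.6% and 61.4% within 500 bp, and 70.5% and 72.3% at the most upstream TSS. Single member ratios left their counting interval in 21 of 30 cases with background scaling and in 0 to 2 with each other alternative; the cause of these shifts was not tested. No paired analysis was possible because each genotype has 1 library, and for the same reason no replicate could be left out.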
